A study of Mus musculus with 2 samples.

Results

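Glycolysis and the response to low oxygen were followed through 35 mouse genes, taken by name as 3 sugar and lactate transporters, 19 glycolytic enzymes and regulators and 13 other genes known to be induced by hypoxia. All 35 had at least 1 probe, 59 probes in all, among 20284 genes named on the array. Of these, 34 could be tested, among 16069 genes tested. The member left out, Aldoa, the aldolase isoform of muscle and of most other tissues, had a single probe that the scanner software marked as an outlier on 1 array.

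The cells were embryonic stem cells (ESCs) of the mouse, which can form all tissues of the embryo, of strain B6C3F1 at passage 26. Cells labelled HDAC6 overexpression (OE) were set against cells labelled WT, and both were grown with the cytokine LIF on a feeder layer of mouse embryonic fibroblasts arrested with mitomycin C. HDAC6 is a mainly cytoplasmic deacetylase that acts on tubulin and on the chaperone Hsp90. How its level was raised, under which promoter, and whether the OE cells were 1 clone is not given in the sources used here. OE RNA carried the dye Cy5 and WT RNA carried Cy3 on each of 2 Agilent arrays, so dye and label run together and no dye swap separates them. The labels call the arrays biological replicates, but the deposited material carries the same number on both, so p-values measure the spread between these 2 arrays, which may be technical.

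Hdac6 itself did not check the labels. Its brighter probe had processed signals of 18275 and 17344 in the OE channel (replicates 1 and 2), against 16389 and 17806 in the WT channel, and a mean log2 ratio of 0.060 ± 0.14 (SD, n = 2; limma adjusted p = 0.64). The other Hdac6 probe averaged 0.089 ± 0.13. Whether these probes match the HDAC6 sequence that was introduced is not given in the sources used here, so every direction below refers to the channel labelled OE over the channel labelled WT. No spot was saturated, and between 68.0% and 68.8% of probes were well above background in each channel of each array. Over all genes tested the median log2 ratio was -0.061.

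Glycolysis splits glucose into pyruvate, first spending ATP in a preparatory phase and then regaining it in a payoff phase. Glucose enters through carriers of the GLUT family, and pyruvate leaves the pathway as lactate or enters mitochondria. When oxygen is short, the hypoxia-inducible factors (HIFs) escape hydroxylation by prolyl hydroxylases (the Egln genes), pair with ARNT and bind hypoxia response elements, and many glycolytic genes are among their known targets. Pluripotent cells are known for a high rate of glycolysis even in the presence of oxygen.

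In the OE channel, 14 of the 34 members were lower and 8 were higher at a limma adjusted p under 0.05, while 12 did not pass. That is 41.2% lower and 23.5% higher, beside 29.9% lower and 21.2% higher among all genes tested. At least 2-fold lower on both arrays were 5 members, Slc2a1, Slc16a3, Aldoc, Ankrd37 and Egln1, against 4.39% of all genes. Slc16a3 and Aldoc lie on chromosome 11 and Ankrd37 and Egln1 on chromosome 8, whose other genes had medians of -0.51 and -0.25. Relative to these medians Slc16a3 (-0.84), Aldoc (-0.94) and Egln1 (-0.89) were less than 2-fold lower on average, and Ankrd37 (-1.19) was more. None of the members was at least 2-fold higher on both arrays, against 3.03% of all genes. The members' median log2 ratio was -0.23, with -0.17 on replicate 1 and -0.36 on replicate 2. By role, the median was -1.18 for the 3 transporters, -0.12 for the 18 tested enzymes and regulators and -0.50 for the 13 other hypoxia genes. The enzyme median had no settled sign, with 0.028 on replicate 1, -0.15 on replicate 2 and 0.011 after loess normalization of the raw signals. The median of the other hypoxia genes lay below that of the enzymes by 0.49 on replicate 1 and by 0.39 on replicate 2. No test of this difference was run, and an exact permutation test over 2 arrays cannot go below 0.5. In RNA from a whole culture, fewer cells of a type and less RNA per cell cannot be told apart.

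**Figure D1:**
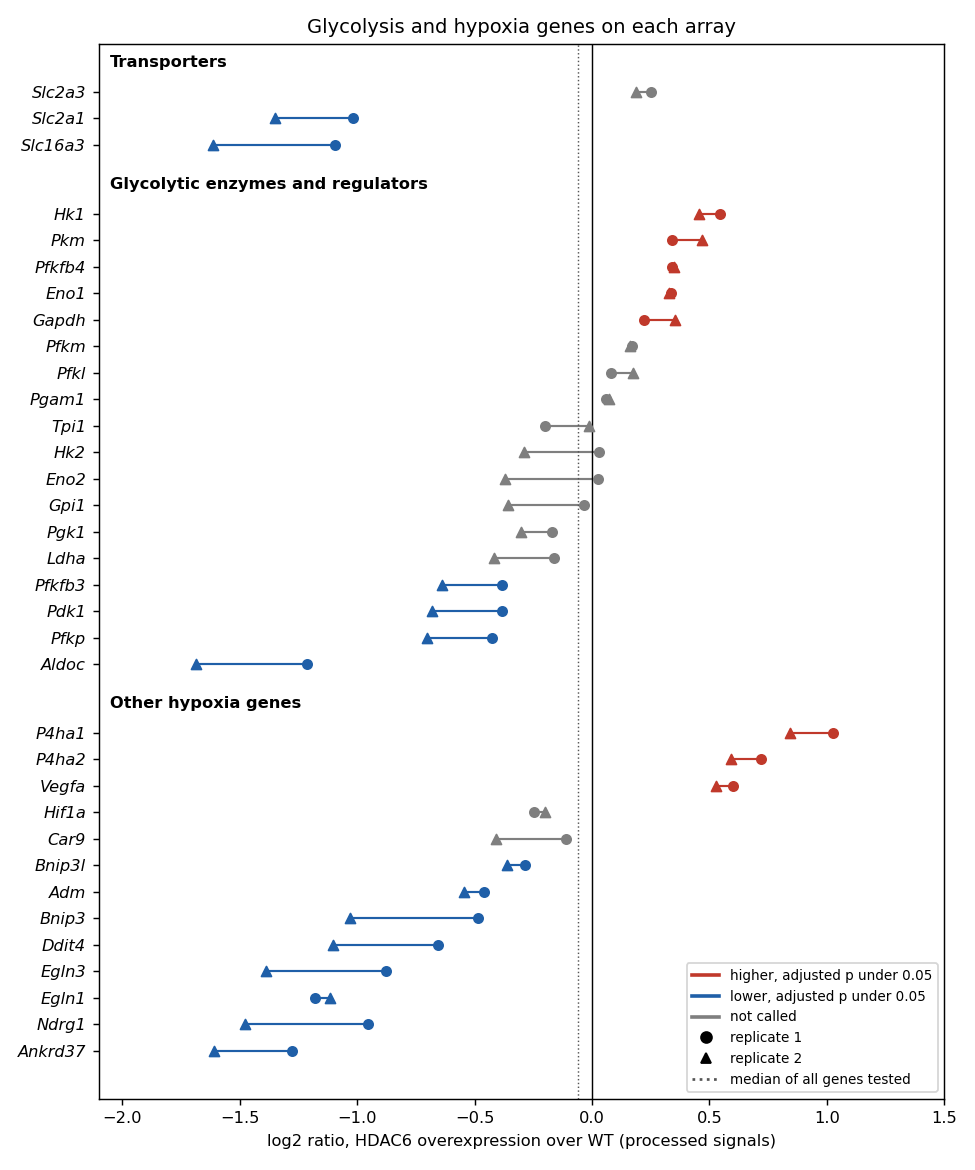
Log2 ratio of the OE over the WT channel (x axis) for the 34 tested members, grouped by role, with a circle for replicate 1 and a triangle for replicate 2. Red and blue mark the 8 higher and 14 lower members, grey the 12 not called, and the dotted line the median of all genes at -0.061. Of the 14 lower members 13, all but Egln1, have triangles to the left of their circles, while P4ha1, P4ha2 and Vegfa stand to the right of 0 on both arrays.

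The promoters of the 3 members that fell most and the 3 that rose most show whether the core of a hypoxia response element, ACGTG or GCGTG on either strand, lies close to their start sites. Each line gives the 250 bases before the first annotated start, 5′ to 3′ on the gene's strand, from RefSeq on build GRCm38.p6. Capitals mark each match to ACGTG or GCGTG, or to CACGT or CACGC, which are the same letters read on the other strand. The lower genes are Aldoc (chr11:78322823-78323072, plus strand), Ankrd37 (chr8:45999851-46000100, minus strand) and Slc16a3 (chr11:120948817-120949066, plus strand). The higher genes are P4ha1 (chr10:59323046-59323295, plus strand), P4ha2 (chr11:54100674-54100923, plus strand) and Vegfa (chr17:46032378-46032627, minus strand).
Aldoc: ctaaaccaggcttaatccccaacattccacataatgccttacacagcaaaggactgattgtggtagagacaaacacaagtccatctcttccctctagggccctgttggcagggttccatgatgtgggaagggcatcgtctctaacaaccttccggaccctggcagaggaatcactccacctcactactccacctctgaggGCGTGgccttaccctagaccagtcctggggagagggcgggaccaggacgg
Ankrd37: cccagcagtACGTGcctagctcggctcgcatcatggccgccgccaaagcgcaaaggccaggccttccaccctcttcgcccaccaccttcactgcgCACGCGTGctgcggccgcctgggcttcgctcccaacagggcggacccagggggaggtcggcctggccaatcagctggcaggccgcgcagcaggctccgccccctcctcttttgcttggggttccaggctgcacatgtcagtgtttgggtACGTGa
Slc16a3: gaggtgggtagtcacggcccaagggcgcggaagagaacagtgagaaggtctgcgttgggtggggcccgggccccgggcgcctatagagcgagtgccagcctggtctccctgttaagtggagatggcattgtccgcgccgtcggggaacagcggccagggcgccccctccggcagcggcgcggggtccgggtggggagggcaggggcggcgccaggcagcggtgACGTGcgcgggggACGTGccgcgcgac
P4ha1: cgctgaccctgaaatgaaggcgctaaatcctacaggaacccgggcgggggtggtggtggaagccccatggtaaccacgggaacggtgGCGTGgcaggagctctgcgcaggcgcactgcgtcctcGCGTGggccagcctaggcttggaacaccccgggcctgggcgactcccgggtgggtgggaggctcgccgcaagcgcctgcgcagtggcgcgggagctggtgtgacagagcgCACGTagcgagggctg
P4ha2: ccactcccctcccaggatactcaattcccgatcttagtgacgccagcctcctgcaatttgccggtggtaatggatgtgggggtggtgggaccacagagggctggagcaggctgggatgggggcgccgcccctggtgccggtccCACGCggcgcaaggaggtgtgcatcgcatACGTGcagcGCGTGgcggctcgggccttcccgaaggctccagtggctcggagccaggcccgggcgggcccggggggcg
Vegfa: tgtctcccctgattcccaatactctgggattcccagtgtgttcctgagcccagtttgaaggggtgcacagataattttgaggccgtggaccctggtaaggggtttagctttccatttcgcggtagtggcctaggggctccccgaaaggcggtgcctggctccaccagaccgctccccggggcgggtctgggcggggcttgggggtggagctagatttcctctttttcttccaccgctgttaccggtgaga

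Matches stood before genes of both directions. Slc16a3 held ACGTG at 27 and 14 bases before its start, and Ankrd37 held it at 241 and 6 bases, with an overlapping CACGC and GCGTG at 155 and 152 bases. In the bases shown, Aldoc held a single GCGTG at 50 bases. P4ha1 held GCGTG at 163 and 126 bases and CACGT at 16 bases, and P4ha2 held CACGC at 107, ACGTG at 78 and GCGTG at 69 bases. With the 50 bases after the start included, which are not printed, Aldoc held 3 matches and P4ha2 held 4. In Vegfa the 250 bases shown held no match, and another annotated start of the gene accounts for its place in the count that follows. Over windows of 300 bases, which run from 250 before to 50 after each annotated start, a match stood in 29 of the 32 members with a promoter in the table (90.6%). The same windows matched for 46.7% of all 27025 genes in the table and for 62.6% of the 12742 genes tested that are in it. By call, 12 of 12 lower members, 8 of 8 higher members and 8 of 11 members not called held a match, and the members without a match were Gpi1, Tpi1 and Eno2. These letters are a description of the sequence and no evidence of binding.

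Among the transporters, the glucose carrier gene Slc2a1 (GLUT1) and the lactate exporter gene Slc16a3 (MCT4) fell. Slc2a1 had processed signals of 18188 and 18912 in the OE channel, against 36810 and 48235 in the WT channel. Both OE signals lay below both WT signals, a 2.27-fold lower level (log2 ratio -1.18 ± 0.24, SD, n = 2; limma adjusted p = 0.00094). Such separation does not mark out the called members. Among the 34 tested members only Hk2, Gpi1 and Eno2 had OE and WT signals that overlapped. Slc16a3 had 15164 and 13882 in OE, against 32412 and 42501 in WT. It was 2.56-fold lower (-1.36 ± 0.37; limma adjusted p = 0.0012), and its second probe had log2 ratios of -1.06 and -1.52. The high-affinity glucose carrier gene Slc2a3 (GLUT3) did not pass, with log2 ratios of 0.25 and 0.19 and signals of 27148 and 29188 in OE, against 22792 and 25637 in WT (limma adjusted p = 0.091). On both arrays Slc2a3 stood above Slc2a1 in log2 ratio, by 1.27 and 1.54.

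Of the preparatory enzymes, 1 of 8 tested genes was higher and 2 were lower, near the shares of 21.2% and 29.9% of all genes. Hk1, the widely expressed hexokinase that traps glucose in the cell, had signals of 13129 and 14155 in OE, against 9005 and 10311 in WT. Its log2 ratio was 0.50 ± 0.061 (limma adjusted p = 0.0071), and its second probe had 0.32 and 0.54. Hk2, the hexokinase known as insulin-responsive and HIF-induced, had 0.031 on replicate 1 and -0.29 on replicate 2 and did not pass (limma adjusted p = 0.37). The Hk1 ratio exceeded that of Hk2 by 0.51 and 0.74 on the 2 arrays.

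Phosphofructokinase, the committed step, has 3 subunit genes. Pfkp, the platelet-type subunit, had 12862 and 12454 in OE, against 17255 and 20251 in WT, a log2 ratio of -0.56 ± 0.20 (limma adjusted p = 0.0082). Its second probe gave 0.059 and -0.061, so the fall rests on the brighter probe, and with the mean over both probes Pfkp did not pass (limma adjusted p = 0.061). Pfkl (liver type) averaged 0.13 and Pfkm (muscle type) 0.17, and neither passed. Gpi1, which converts glucose 6-phosphate to fructose 6-phosphate, had -0.034 and -0.36 by its brightest probe and did not pass (limma adjusted p = 0.19). The mean over the 3 Gpi1 probes was -0.32, just past the threshold at a limma adjusted p of 0.0497.

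The aldolase genes gave the member with the lowest mean log2 ratio, Aldoc, though Ankrd37 (-1.44) was nearly as low. Relative to chromosome medians Ndrg1 (-1.21), Ankrd37 (-1.19), Slc2a1 (-1.18) and Egln3 (-1.05) were lower than Aldoc (-0.94). Aldoc, the brain-type aldolase and a known hypoxia target, had 9588 and 8633 in OE, against 22217 and 27758 in WT. Both OE signals were under those of WT, 2.73-fold lower on average (-1.45 ± 0.33; limma adjusted p = 0.00084). The only probe of Aldoa had a log2 ratio of 0.53 on replicate 1. With its outlier-marked spot kept it had 0.21 on replicate 2, and a mean of 0.37 ± 0.22 (limma adjusted p = 0.038), opposite in sign to Aldoc. Tpi1, which interconverts the triose phosphates, did not pass (-0.11; limma adjusted p = 0.39).

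In the payoff phase 3 of 6 genes rose and 0 fell, beside 21.2% higher and 29.9% lower among all genes tested. Gapdh, the dehydrogenase that opens this phase, had 34275 and 38545 in OE, against 29381 and 30161 in WT (0.29 ± 0.093; limma adjusted p = 0.047). All 6 Gapdh probes measured on both arrays were above 0, with means between 0.19 and 0.74. Without the filter on dim probes the Gapdh ratio was the same and its call was lost (limma adjusted p = 0.075). With outlier-marked spots kept the ratio was 0.40 and the call was lost too (limma adjusted p = 0.063). Eno1, the ubiquitous enolase, had 33678 and 36444 in OE, against 26708 and 29008 in WT (0.33 ± 0.0038; limma adjusted p = 0.026). Pkm, which encodes the muscle and embryonic pyruvate kinases, had 20277 and 22020 in OE, against 16019 and 15940 in WT (0.40 ± 0.089; limma adjusted p = 0.016). For each of the 3 genes both OE signals lay above both WT signals, as they also did for Pgam1, which did not pass.

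The other payoff genes did not pass. Pgk1, a phosphoglycerate kinase gene, averaged -0.24, the mutase gene Pgam1 averaged 0.067, and the neuronal enolase gene Eno2 had 0.025 and -0.37. Eno1 exceeded Eno2 in log2 ratio by 0.31 and 0.70. Gapdh, Pgk1, Ldha and other glycolytic genes are known to have many near-identical processed copies in the mouse genome, and whether their probes tell these apart is not known here.

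The bifunctional regulators, whose product fructose 2,6-bisphosphate activates phosphofructokinase, moved in opposite directions. Pfkfb3, the isoform with high kinase activity, had 5814 and 5643 in OE, against 7580 and 8785 in WT (-0.51 ± 0.18; limma adjusted p = 0.011), and its second probe averaged -0.51. Pfkfb4 had 1827 and 2073 in OE, against 1444 and 1626 in WT (0.34 ± 0.0070; limma adjusted p = 0.023). Its second probe, very dim and not well above background throughout, had 1.53 and 1.04. The Pfkfb4 ratio was above that of Pfkfb3 by 0.72 and 0.99.

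At the fate of pyruvate, Pdk1 fell and Ldha did not pass. Pdk1, the kinase that switches off pyruvate dehydrogenase, had 11157 and 10854 in OE, against 14536 and 17388 in WT (-0.53 ± 0.21; limma adjusted p = 0.011). Ldha, the lactate dehydrogenase subunit that favours lactate formation, had -0.16 and -0.42 by its brightest probe (limma adjusted p = 0.063). Its other 2 probes were below 0 on replicate 1 (-0.32 and -0.41) and above 0 on replicate 2 (0.070 and 0.19), so the Ldha probes disagree on replicate 2.

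Of the oxygen sensing genes, Egln1 and Egln3 fell and Hif1a did not pass. Egln1 (PHD2), the main HIF prolyl hydroxylase, had weak signals of 239 and 251 in OE, against 540 and 542 in WT, well above background in each. It was 2.21-fold lower (-1.15 ± 0.045; limma adjusted p = 0.00055). Egln3 (PHD3), itself a HIF target, had 7562 and 6388 in OE, against 13885 and 16698 in WT (-1.13 ± 0.36; limma adjusted p = 0.0019), and its second probe had -0.95 and -1.58. Hif1a, the oxygen-regulated HIF subunit, had -0.25 and -0.20 and did not pass (limma adjusted p = 0.087).

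The lowest of the remaining hypoxia genes were Ankrd37, Ndrg1 and Ddit4. Ankrd37, an ankyrin repeat gene known as a HIF target, had 4831 and 4549 in OE, against 11705 and 13872 in WT, and was 2.72-fold lower (-1.44 ± 0.23; limma adjusted p = 0.00055). Ndrg1, a stress-induced growth regulator, had 9552 and 8522 in OE, against 18509 and 23748 in WT (-1.22 ± 0.37; limma adjusted p = 0.0016). Ddit4 (REDD1), which restrains mTORC1 when oxygen or energy is short, had 14516 and 13558 in OE, against 22832 and 29072 in WT (-0.88 ± 0.32; limma adjusted p = 0.0035). In all 3 genes both OE signals lay below both WT signals, as they also did for Hif1a and Car9, which did not pass.

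Mitophagy receptor genes fell by unequal amounts. Bnip3 had 20377 and 17942 in OE, against 28546 and 36596 in WT (-0.76 ± 0.38; limma adjusted p = 0.0085), and its other 2 probes averaged -0.93 and -0.87. Bnip3l (NIX) had 19792 and 20756 in OE, against 24121 and 26664 in WT (-0.32 ± 0.054; limma adjusted p = 0.030). The 4 Bnip3l probes disagreed, with means of -0.32, 0.064, 0.0043 and -0.51, and the mean over them did not pass (-0.19; limma adjusted p = 0.14).

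**Figure D2:**
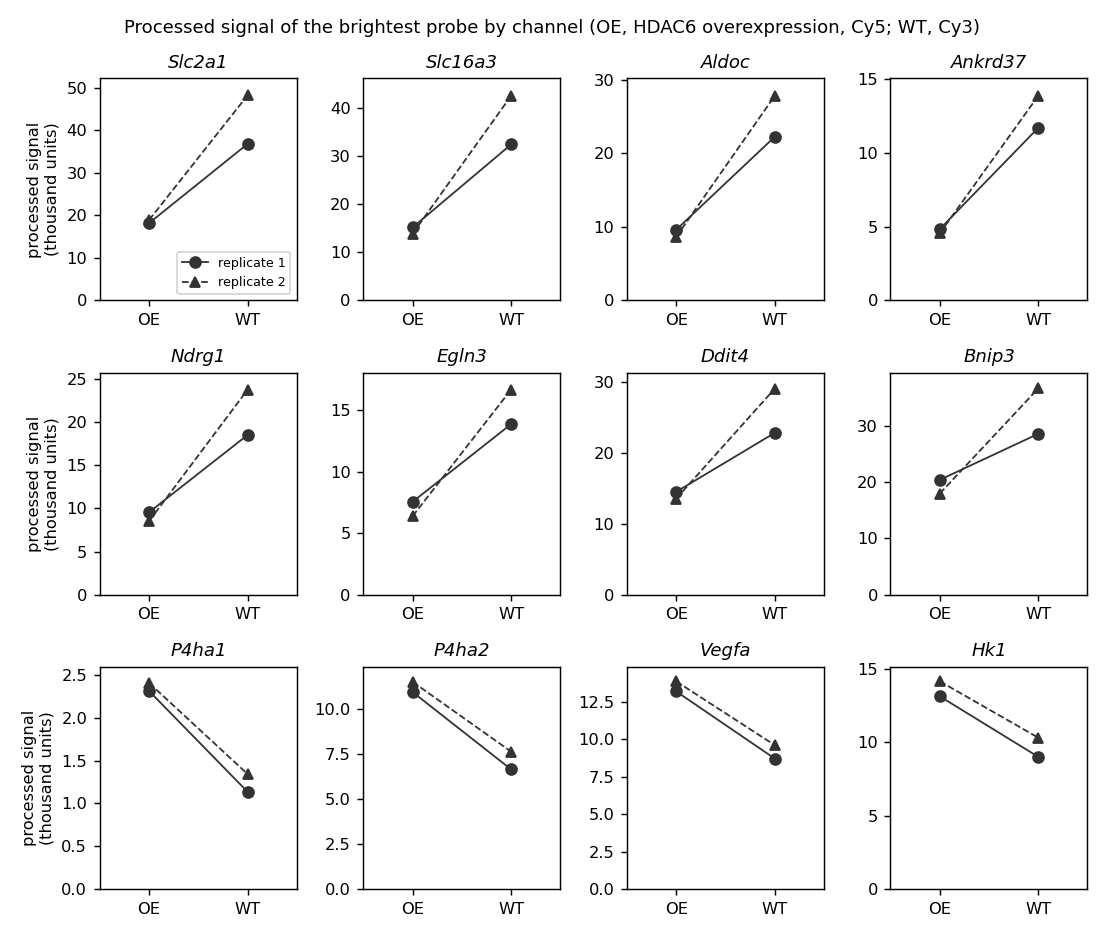
Processed signal (y axis, in units of 1000, from 0) of the brightest probe in the OE and WT channels for 12 members, with a solid line for replicate 1 and a dashed line for replicate 2. The upper 8 panels show members that fell and the lower 4 members that rose. In these 8 panels the WT points of the arrays lie further apart than the OE points, as for Slc2a1 with 18188 and 18912 in OE against 36810 and 48235 in WT.

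Collagen prolyl hydroxylase genes went the other way. P4ha1, the catalytic subunit that hydroxylates collagen in the endoplasmic reticulum, had 2313 and 2407 in OE, against 1135 and 1343 in WT, and was 1.91-fold higher (0.93 ± 0.13; limma adjusted p = 0.0012). Its second probe had 0.61 and 0.36. P4ha2, its isoform, had 10933 and 11501 in OE, against 6641 and 7627 in WT (0.66 ± 0.090; limma adjusted p = 0.0030). P4ha1 and P4ha2 had the highest mean log2 ratios of the 34 tested members.

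Among secreted and surface proteins 1 gene rose and 1 fell. Vegfa, the angiogenic growth factor, had 13216 and 13887 in OE, against 8724 and 9623 in WT (0.56 ± 0.050; limma adjusted p = 0.0046), and a second probe had 0.40 and 0.30. Adm, the vasodilator peptide adrenomedullin, had 4514 and 4884 in OE, against 6211 and 7119 in WT (-0.50 ± 0.059; limma adjusted p = 0.0070). Car9, a cell-surface carbonic anhydrase widely used as a hypoxia marker, had -0.11 and -0.41 and did not pass (limma adjusted p = 0.095), while with loess normalization of the raw signals it was lower (-0.28; limma adjusted p = 0.035).

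Markers of other cell types moved in the same comparison. Of 15 fibroblast markers chosen for the feeder layer, 14 were tested and all 14 were higher in OE, with a median log2 ratio of 1.11. Their summed processed signal was 213828 and 279347 in OE, against 110958 and 94966 in WT. Of 16 markers of the primitive endoderm, which later forms yolk sac tissue, 15 were higher and 1, Afp, was lower. Their summed signal was 182337 and 187758 in OE, against 24470 and 27950 in WT. All 12 ESC markers were well above background in both channels, with 3 higher and 6 lower, and summed to 197174 and 212394 in OE, against 222654 and 238545 in WT. Among the markers tested, Ttr alone was not well above background in WT. Fibroblasts are known to express P4ha1 and P4ha2. On replicates 1 and 2 the median log2 ratio was 0.90 and 1.40 for the fibroblast markers and 3.34 and 3.20 for the endoderm markers. P4ha1 had 1.03 and 0.84, and P4ha2 0.72 and 0.59. The part of these other cell types in the members' ratios was not tested.

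The arrays agreed on the sign of every member that passed but not on the size. The log2 ratio of replicate 2 lay more than 0.25 below that of replicate 1 in 16 of 34 members (47.1%), beside 10.9% of all genes tested, and more than 0.25 above it in 0 members, beside 15.5% of all genes. The limit of 0.25 was set after the values had been seen. Among the 14 lower members 11 met it, led by Bnip3 (-0.54), Ndrg1 (-0.52), Slc16a3 (-0.52), Egln3 (-0.51), Aldoc (-0.47) and Ddit4 (-0.45). Egln1, Adm and Bnip3l fell without meeting it.

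Both channels differed between the arrays. In the 14 lower members the OE signal of replicate 2 over that of replicate 1 had a median log2 ratio of -0.067, and it was above 0 in 4 of 14. Their WT signal had a median of 0.26 for the same comparison and was above 0 in 14 of 14. Over all genes these medians were 0.12 in OE and 0.12 in WT. For the 8 higher members they were 0.11 in OE and 0.16 in WT. The fibroblast markers differed between the arrays as well, with a median log2 ratio of 0.90 on replicate 1 and 1.40 on replicate 2, and all 14 had replicate 2 above replicate 1 by more than 0.25. Whether this bears on the members was not tested.

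**Figure D3:**
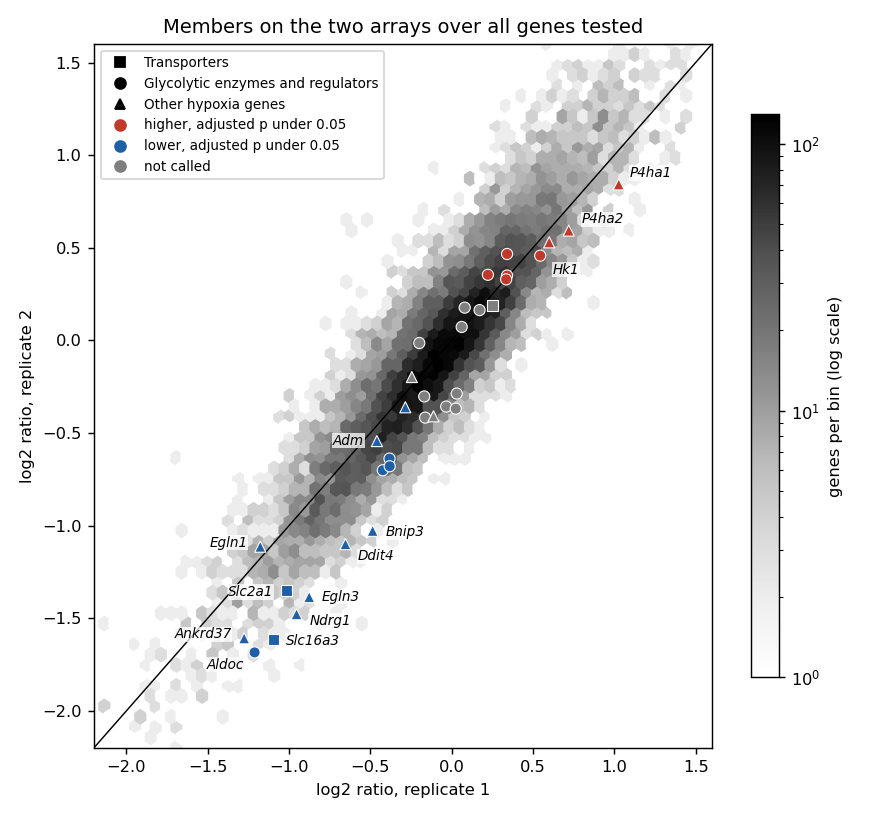
Log2 ratio of the OE over the WT channel on replicate 2 (y axis) against replicate 1 (x axis), with grey bins for all genes tested within the axis limits (darker bins hold more genes, log scale) and symbols for the 34 members by role and call. The diagonal marks equal ratios. Of the members, 16 lie more than 0.25 below it and 0 lie more than 0.25 above it.

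Genes of some chromosomes were shifted together, so each member was set beside the other genes of its chromosome. The median log2 ratio of the other genes was -0.51 on chromosome 11, where 66.9% of them were lower, and -0.25 on chromosome 8, where 46.8% were lower. On chromosome 1, which holds no member, it was 0.25, and on the remaining autosomes and X it lay between -0.10 and -0.0052. Slc16a3, Aldoc and P4ha2 lie on chromosome 11. Relative to its median they had -0.84, -0.94 and 1.17, so the ratios of Slc16a3 and Aldoc were less far from 0 and that of P4ha2 further. Ankrd37 and Egln1, on chromosome 8, had -1.19 and -0.89 relative to its median. Slc2a1 (chromosome 4), Ndrg1 (chromosome 15) and Egln3 (chromosome 12) kept -1.18, -1.21 and -1.05. Outside chromosomes 8 and 11, 10 of 29 members were lower (34.5%) and 7 higher (24.1%), beside 25.3% and 22.8% of all genes there.

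**Figure D4:**
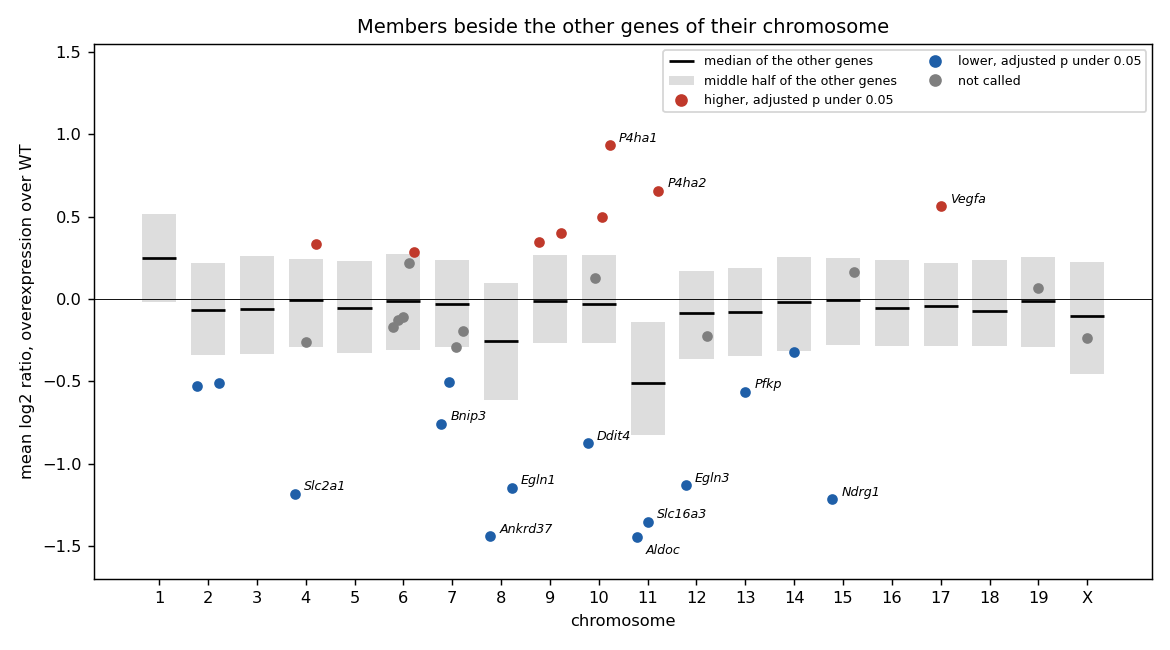
Mean log2 ratio of the OE over the WT channel (y axis) for the members, placed by chromosome (x axis), over the median (black line) and the middle 50% (grey box) of the other genes tested. Slc16a3 and Aldoc lie below a chromosome 11 median of -0.51, while P4ha2 on the same chromosome lies above 0.

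Of 9 pairs of related genes set side by side, 8 differed in the same direction on both arrays. No such share is given for pairs of other genes, and Pfkp enters more than 1 pair, so the count describes these pairs only. Beside the pairs already given, Pfkl and Pfkm exceeded Pfkp by 0.50 and 0.59 on replicate 1 and by 0.88 and 0.86 on replicate 2. P4ha1 exceeded P4ha2 by 0.31 and 0.25, and Bnip3l exceeded Bnip3 by 0.20 and 0.67. Egln3 minus Egln1 was 0.30 on replicate 1 and -0.27 on replicate 2. These differences were not tested. Those that involve Pfkp or Bnip3l use 1 of several probes that disagree. The order of P4ha1 and P4ha2 turns with the second P4ha1 probe (0.61 and 0.36, against 0.72 and 0.59 for P4ha2) and relative to chromosome medians (0.97 for P4ha1 and 1.17 for P4ha2).

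Other genes of sugar metabolism showed no common direction. Of 25 further glycolysis and sugar transport genes, 19 were tested, and 5 were higher and 7 lower, with a median of -0.11. That is 26.3% higher and 36.8% lower, near the 21.2% and 29.9% of all genes tested. Hkdc1, a hexokinase-domain gene, had 2335 and 2313 in OE, against 52.5 and 66.2 in WT, a 39.4-fold higher level (5.30 ± 0.25; limma adjusted p = 2.1e-05). Gapdhs, the sperm form of Gapdh, was not well above background in WT and was kept through the OE channel alone, with dim signals of 48.5 and 48.9. It was at least 1.17-fold higher, with measured channel means of 5.60 in OE and 4.14 in WT on the log2 scale. The test of its measured ratio (limma adjusted p = 0.0061) uses the dim WT signals and does not test this bound. Such a bound sets the brighter channel against the lowest level well above background in the dimmer one. It uses the processed signals after Aquantile normalization and is open to dye bias.

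Past pyruvate, the pyruvate dehydrogenase group, which feeds carbon into mitochondria, had 3 of 12 genes higher and 6 lower (median -0.28). The phosphatase gene Pdp2 (-0.45), the subunit gene Pdhb (-0.42) and the kinase gene Pdk3 (-0.42) fell, with limma adjusted p between 0.012 and 0.016. The tricarboxylic acid cycle had 1 of 17 genes higher and 7 lower (median -0.25), led by Mdh1 (-0.72), Ogdh (-0.60) and Sdha (-0.50). In gluconeogenesis 1 of 7 genes was higher and 3 lower (median -0.35), with the fructose bisphosphatase gene Fbp1 at -1.36, G6pc3 at -0.87 and G6pc at 0.40. The G6pc signals were dim, at 117 and 98.4 in OE, against 86.4 and 76.6 in WT. In the pentose phosphate pathway 2 of 7 were higher and 3 lower (median -0.17), with Rpe at 0.67, the transketolase gene Tkt at -0.49 and Rpia at 0.37. Of the genes named here Mdh1, Ogdh, G6pc3 and G6pc lie on chromosome 11 and Pdp2 on chromosome 8, whose other genes were shifted lower as given above. Rpe lies on chromosome 1, whose other genes were shifted higher, with a median of 0.25. These shares stand beside 21.2% higher and 29.9% lower among all genes.

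Most of the HIF machinery did not pass. Of 10 genes 1 was higher and 2 lower (median -0.13), beside 21.2% and 29.9% of all genes. Arnt2, a partner of HIF alpha subunits in neural cells, had -1.02 and -0.62 (limma adjusted p = 0.0037), and Hif3a, a HIF alpha paralogue, -0.61 and -0.82 (0.0029). Cited2, which competes with HIF for the coactivators p300 and CBP, had 0.59 and 0.54 (limma adjusted p = 0.0045). Arnt, Vhl, Epas1, Egln2, Hif1an, Ep300 and Crebbp did not pass. Of 34 further HIF targets, 8 were higher (23.5%) and 11 lower (32.4%) with a median of -0.10, close to the 21.2% and 29.9% of all genes. Lox, a collagen crosslinking enzyme, had 1.30 ± 0.48 (limma adjusted p = 0.0023), the transferrin gene Trf -1.23 ± 0.10 (0.00051) and the VEGF receptor gene Kdr -1.10 ± 0.18 (0.00090). In the integrated stress response, which shares Ddit4 as a known target, 2 of 10 genes were higher and 4 lower (median -0.11), beside the same shares of all genes. Slc7a11, the cystine exchanger gene, had -1.30, Trib3 -0.39 and Ddit3 0.39. The Slc7a11 signals were dim, at 48.7 and 67.3 in OE, against 132 and 151 in WT.

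The ratio of bright genes depends on how the dyes were balanced. In the brightest 10th of genes tested, which holds 14 of the 34 members, the raw median log2 ratio of OE over WT was 0.67 on replicate 1 and 0.73 on replicate 2, and after the scanner software's dye correction -0.083 and -0.063. With background-corrected signals centred on the array's median, and no step that depends on brightness, 18 members were higher and 11 lower, in place of 8 and 14. Over all genes that setting gave 4878 higher and 4812 lower, in place of 3413 and 4807. There Pfkp, Pdk1 and Bnip3 no longer passed, with log2 ratios of -0.18, -0.23 and -0.0090, and Bnip3l was higher (0.39; limma adjusted p = 0.0038). Slc2a3 was called higher there (1.01) and also after loess normalization (0.38; limma adjusted p = 0.0046). Of the 14 lower members 13 stayed below 0 in the 13 alternative settings, all but Bnip3l, and all 8 higher members stayed above 0. The deposited table, the other filters, the intensity trend and the test against a 1.5-fold change leave these ratios as they were. The sign could not turn in those settings. Over all settings Slc2a1 had log2 ratios between -1.35 and -0.35, Slc16a3 between -1.61 and -0.68, Aldoc between -1.68 and -0.94 and Ankrd37 between -1.61 and -1.19. P4ha1 had ratios between 0.71 and 1.03, P4ha2 between 0.59 and 1.17, and Vegfa between 0.46 and 0.76.

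**Figure D5:**
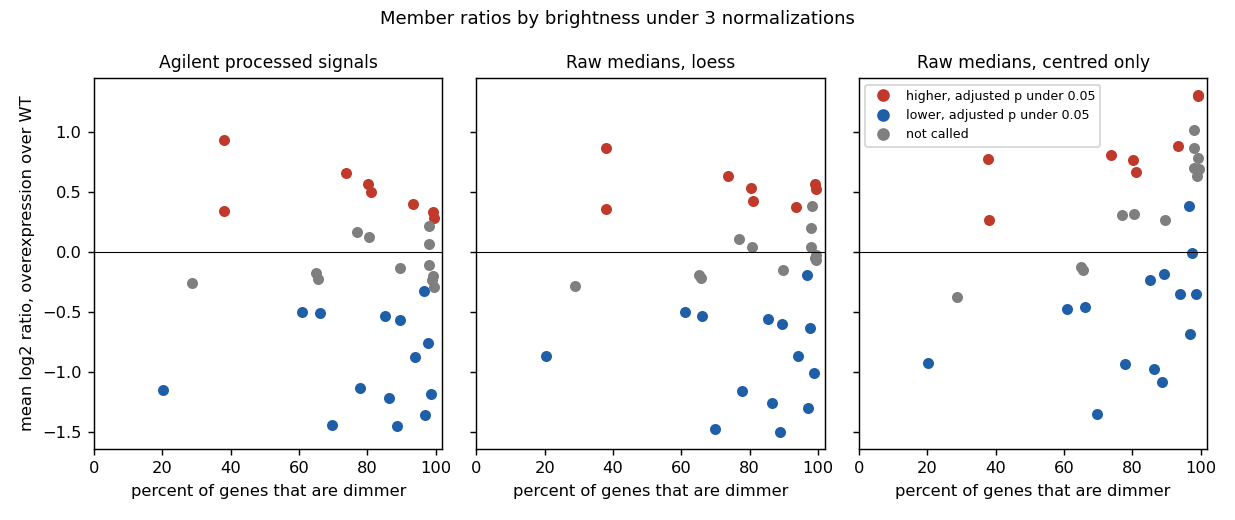
Mean log2 ratio of the OE over the WT channel (y axis) against brightness, as the percent of tested genes that are dimmer (x axis), for the 34 members under 3 normalizations. Colours give the call with the scanner software's processed signals in all panels. At the bright end several grey points near 0 in the left and middle panels lie above 0.5 in the right panel, where 18 members are called higher.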

How the data were processed

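Total RNA of OE and WT cells was amplified, labelled with Cy5 (OE) and Cy3 (WT) and hybridised together on 2 Agilent arrays, per the labels' protocols. Spots (62976 per array, 3671 of them controls) were quantified by the authors in Agilent Feature Extraction 11.5.1.1, per the file headers. The deposited processed intensity of each channel had its background subtracted and its dyes balanced by a linear and a lowess step, per the file headers, and deposited raw median intensity values of spot and background stand beside it. The deposited log10 ratio is that of processed Cy5 over Cy3. The deposited series table holds log2 values that correlated with the processed log2 ratios at -1.000 with slopes of -1.000 on both arrays, so they run as WT over OE. Its column medians are -0.0073 and 0.062, and whether it was centred further is not known.

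Here the log2 ratio of the processed signals (OE over WT) was used without further centring. Control spots and outlier-marked spots (269 and 313) were left out and spots of a probe were averaged. Through accessions in a RefSeq table of build GRCm38.p6, 26762 of 55681 probes had 1 gene symbol, 0 had several and 28919 none. The array's grid was built on another assembly, so the table's coordinates are given for the printed promoters only. A gene was its brightest probe, kept if well above background in 1 same channel on both arrays. Ratios were tested against 0 with limma 3.58.1 (lmFit, eBayes) under R 4.3.3, two-sided, with Benjamini-Hochberg adjustment over 16069 genes and a threshold of 0.05. There was 1 residual degree of freedom beside a prior of 4.60, and the typical standard error was 0.094. The number of arrays limits the precision. The fit was also run on data simulated from its own fitted model. Those data hold no dye bias or chromosome shifts, so that run does not check the p-values against either.

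All 35 members are accounted for. Of each further gene list, up to 3 genes past the threshold with the largest absolute ratio are named. A gene that this rule names is not reported here. The members, lists and markers were chosen with earlier results of these data known. Alternatives were loess (normexp, offset 50) or median centring of raw medians, centring on the gene median, the mean over probes, other filters, outlier spots kept, the deposited table, an intensity trend in the variance, a test against a 1.5-fold change, each array alone and the chromosome median.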

Additional observations from a re-analysis of the deposited data

How the results depend on the processing

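Both labels lie on each array, so each ratio is already a within-array difference and the test pairs OE with WT. Beyond that, no paired analysis was possible because the ratios form 1 group. Median centring of raw signals gave 18 members higher, in place of 8, and medians of -0.35 for the transporters, 0.48 for the enzymes and -0.35 for the other hypoxia genes. It also gave positive ratios for Hk2 (0.27), Gpi1 (0.78), Tpi1 (0.70), Pgk1 (0.63), Ldha (0.69) and Bnip3l (0.39), all of them past the threshold there. Loess on raw signals turned the enzyme median to 0.011, and with 1 array left out it ranged from -0.15 to 0.028. The transporter median was -0.84 relative to chromosome medians, and the other hypoxia median -0.44 after centring on the gene median. That centring gave 4030 genes higher and 4074 lower over all genes, in place of 3413 and 4807. The test against a 1.5-fold change, which asks for a larger effect, called 667 genes higher and 942 lower, and of the members 0 higher and 7 lower, so 15 calls among the members were lost. Beyond these, calls were lost for Bnip3l with loess (limma adjusted p = 0.091), gene-median centring (0.061) and no filter (0.051). Calls were gained for Ldha with the filter on both channels (0.047), for Slc2a3 with loess (0.0046) and gene-median centring (0.047), for Car9 with loess (-0.28; 0.035) and median centring (-0.37; 0.0071), for Gpi1 with the mean over probes (0.0497), for Slc2a3, Pfkl, Pfkm and Pgam1 with median centring, and for 4 members with the intensity trend. The deposited table gave the same call for all 34 members. Where no cause is named, it was not tested. Egln1, Car9, P4ha1 and Pfkfb4 had the dimmest chosen probes among the members tested, and each was well above background in each channel.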

Other observations

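Beside P4ha1 and P4ha2, 4 further genes of enzymes that modify or crosslink collagen were higher in OE. They were picked after their values had been seen, so that their shared direction is set by the choice. Plod1, a collagen lysyl hydroxylase gene, had processed signals of 3811 and 4292 in OE, against 3255 and 3001 in WT (log2 ratio 0.37 ± 0.20; limma adjusted p = 0.034). Plod2, its paralogue, had 5682 and 5898 in OE, against 3503 and 3565 in WT (0.71 ± 0.020; limma adjusted p = 0.0020). Lox, a lysyl oxidase gene, had 13558 and 20261 in OE, against 6963 and 6490 in WT, and Loxl2 had 9856 and 11659 in OE, against 7080 and 7743 in WT (0.53 ± 0.080; limma adjusted p = 0.0060). The 14 fibroblast markers tested were higher too, with a median log2 ratio of 1.11, and the collagen IV genes among the endoderm markers were 7.09-fold (Col4a1) and 5.27-fold (Col4a2) higher. The part of these cell types in the collagen enzymes' ratios was not tested.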
